A study of Mus musculus with 6 samples.

Results

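Hepatic mRNA was described for 40 interferon-stimulated and antigen presentation genes, out of 24421 genes listed in the deposited table. The members were listed by symbol, as known targets of type I and type II interferon and genes of major histocompatibility complex (MHC) presentation. The list was chosen with earlier results of these data known. Their symbols were matched to the gene names of the table, and all 40 were found. The study compared livers of 3 WT mice with livers of 3 heterozygous PAI-1 deficient (Pai-1+/-) mice, all male C57BL/6, 21 weeks old in the labels, on a standard chow diet without restriction of food and given no drug. The methods give the strain as C57BL/6 J. Sex, diet and the absence of a drug are taken from the methods of the study. PAI-1 is the main inhibitor of the plasminogen activators. The heterozygous mice carry 1 null copy of the gene throughout the body, and the methods describe them as offspring of Pai-1-/- and WT mice. Whole liver was sequenced, so fewer cells of a type and less RNA per cell cannot be told apart.

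The level used throughout is the authors' mean normalized count, which is the count of reads divided by a size factor per library and averaged over the libraries of both genotypes. It is a single pooled value per gene, and no SD, no n per genotype and no value per mouse belong to it. The deposited counts per animal carry animal numbers that match no sample label, so no library could be placed in a genotype. WT and Pai-1+/- livers are therefore not compared here, and since the counts per animal were not used, the order of genes with close levels is not set against the spread between animals. The mean normalized counts of all genes summed to 30045982.

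Interferons are secreted proteins that bind receptors on nearly all nucleated cells, where kinases of the JAK family activate STAT factors. Type I interferon acts mainly through a complex of STAT factors and IRF9 that binds the interferon-stimulated response element (ISRE), and interferon gamma mainly through STAT dimers that bind the gamma-activated sequence (GAS). MHC class I molecules, made of a heavy chain and beta-2 microglobulin, display peptides from inside the cell, while class II molecules display peptides taken up by professional antigen presenting cells. In the liver, class II is known mainly from Kupffer cells, dendritic cells, B cells and sinusoidal endothelium.

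All 40 genes had a mean normalized count above 10, a limit passed by 53.1% of all listed genes. The members' levels spanned a 1078-fold range, from 38.5 for *Ifi44* to 41559.9 for *B2m*. Their median was 485, beside a median of 440.4 over the 12971 genes above 10 and of 18.5 over all listed genes, and 22 of the 40 lay above the former. Together the members took 0.348% of all normalized counts. The class I genes made up 81.6% of the members' summed count, and *B2m* and *H2-K1* alone made up 72.2%. Interferon-induced effectors, with 15 members, made up 4.35%, and the chemokines made up 0.201%.

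**Figure D1:**
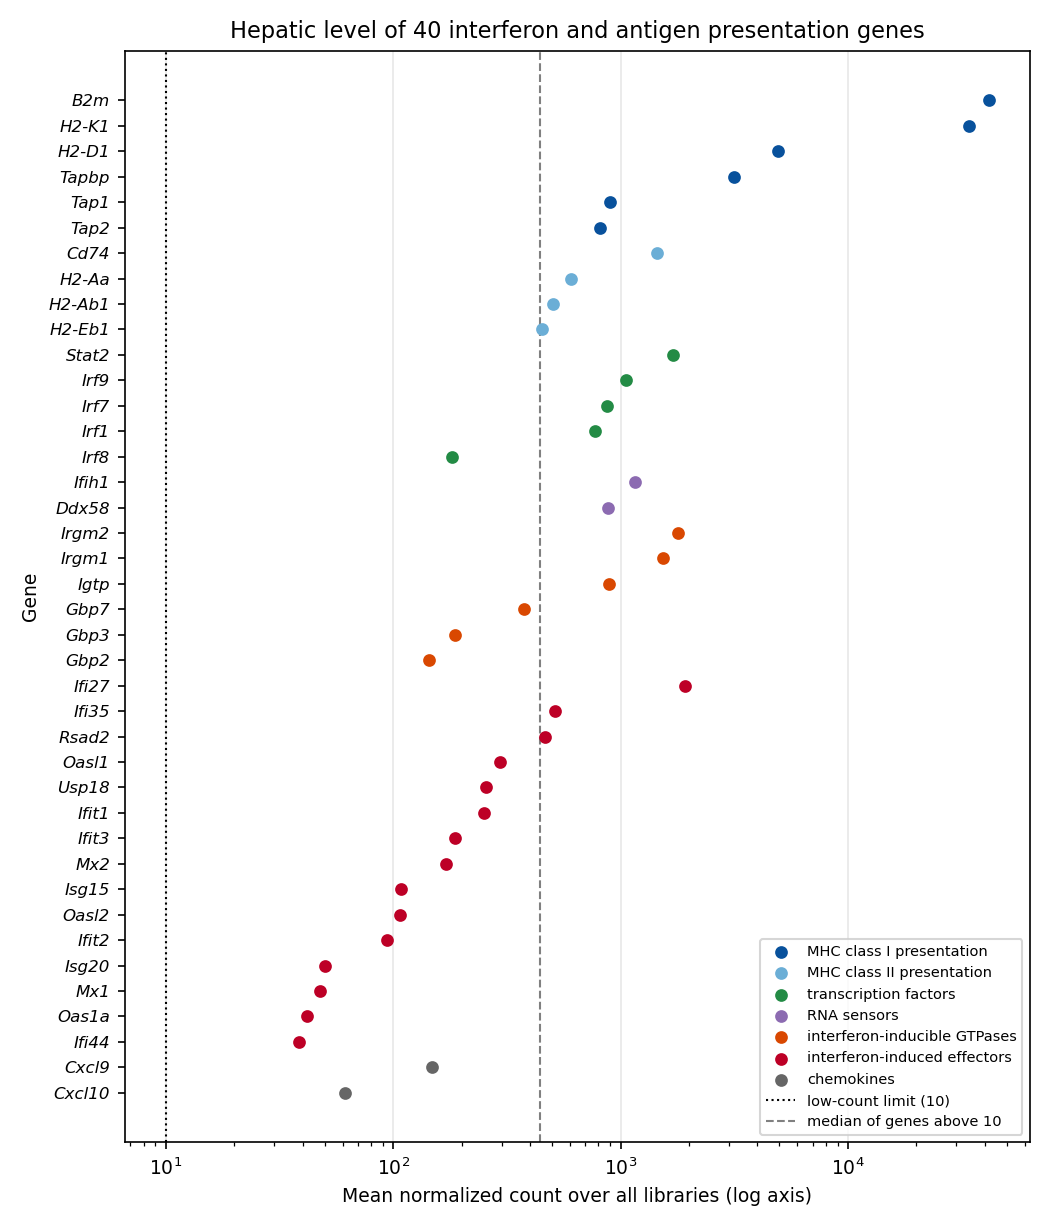
Authors' mean normalized count over all libraries (log axis) of the 40 genes, coloured by role, 1 point per gene with no error bar because the deposited mean is pooled over both genotypes. *B2m* at 41559.9 and *H2-K1* at 33907 stand at the right, all genes lie right of the limit of 10, and most interferon-induced effectors lie left of the dashed median of genes above 10 (440.4).

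Class I presentation genes held the top 4 places among the members. *B2m*, the light chain shared by class I molecules, had a level of 41559.9 and ranked 96th of all listed genes. *H2-K1*, a classical heavy chain, followed at 33907 and ranked 115th. These were the 2 members above the 99 percentile of all listed genes. *H2-D1*, the other classical heavy chain of this strain, had a level of 4948, so the *H2-K1* value was 6.85 times as high. On the scale of counts per kilobase of the longest annotated transcript, which allows levels of different genes to be compared, *H2-K1* was at 18093 and *H2-D1* at 2354, a ratio of 7.69. With the median length of a gene's annotated transcripts in place of the longest, the levels were 39358 and 8819 per kilobase, a ratio of 4.46.

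The class I loading genes among the members, *Tapbp*, *Tap1* and *Tap2*, were less abundant than the heavy chains *H2-K1* and *H2-D1*. Outside the members, *Calr* (20926), *Canx* (13271) and *Pdia3* (12783), listed with the other class I genes, lay above *H2-D1*. *Tapbp*, encoding tapasin, which bridges empty class I molecules to the peptide transporter, had a level of 3145, or 1085 per kilobase. *Tap1* and *Tap2*, the subunits of that transporter, were close to each other at 897 and 812, or 229 and 236 per kilobase of the longest transcript. With the median transcript length they were 339.9 and 2147 per kilobase, 6.32 times apart. Of the exonic bases of *Tapbp*, 24.9% lie within exons of *Gm19412* on the opposite strand, and 14.1% of those of *Tap2* lie within *Gm15821*, also on the opposite strand. Whether reads were counted by strand is not given in the sources used here, so these 2 values may include reads of the overlapping gene.

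The class II genes lay below the class I chains and *Tapbp*, while *Cd74* lay above both transporter genes by count. With the median transcript length, *Cd74* at 1186 per kilobase lay above *Tap1* (339.9) but below *Tap2* (2147). *Cd74*, the invariant chain that guards the class II groove, was highest with 1451, followed by *H2-Aa* with 603, *H2-Ab1* with 504 and *H2-Eb1* with 451. The first of these levels was 2.41 times that of *H2-Aa*, and 5.5 times per kilobase of the longest transcript, but 1.92 times with the median transcript length. *H2-Ab1* was the highest of the 3 chains per kilobase by either length, at 416 with the longest transcript and 692 with the median. The order of the others depended on the length, with *H2-Eb1* at 270.1 and *H2-Aa* at 187 by the longest transcript and 417 and 617 by the median. *H2-Aa* and *H2-Ab1* encode the alpha and beta chains of I-A, and *H2-Eb1* encodes the beta chain of I-E, which C57BL/6 mice do not display because the alpha chain gene is defective in this strain.

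The class II genes can be read beside markers of the cells that carry them. Kupffer cell markers, such as the lectin *Clec4f* (1816) and *Cd5l* (2374), had 6 of 6 genes above 10, with levels from 173 to 2374. Liver endothelial markers also had 6 of 6, from 205 to 1273. B cell markers ran from 15.2 to 38.6 and T cell markers from 5.2 to 25.5. Dendritic cell markers ran from 3.77 to 69.8, with 2 of 5 above 10, and no marker of these cell types was at 0. The part of each cell type in the class II levels was not tested.

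Among the transcription factors, 4 of 5 genes lay between 769 and 1695. *Stat2* was highest at 1695, ahead of *Irf9*, its DNA-binding partner, at 1055. *Irf7*, which amplifies type I interferon production, had a level of 876, and *Irf1*, induced chiefly by interferon gamma, had 769. *Irf8*, a factor of macrophages, dendritic cells and B cells, was lowest at 181. The cytosolic RNA sensors *Ifih1* and *Ddx58*, which encode MDA5 and RIG-I, had levels of 1156 and 880.3. Per kilobase the order was turned round, with 211 and 227 by the longest transcript and 398 and 616 by the median transcript length.

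The interferon-inducible GTPases take part in defence against intracellular pathogens, and the members among them separated by family. *Irgm2* (1782), *Irgm1* (1531) and *Igtp* (888), of the immunity-related GTPases, were higher than *Gbp7* (378), *Gbp3* (188) and *Gbp2* (144), of the guanylate-binding proteins. The same split held per kilobase, where the immunity-related GTPases ran from 399.6 to 505 and the guanylate-binding proteins from 57.1 to 70.0. Outside the members the split was not complete. *Iigp1* (10588) and *Ifi47* (619), also immunity-related GTPases, lay above *Gbp4*, *Gbp5*, *Gbp6*, *Gbp8*, *Gbp9* and *Gbp10*, which ran from 44.6 to 140. *Tgtp1* (47.4) and *Tgtp2* (18.9), of the same family, lay below the 3 guanylate-binding proteins among the members. *Tgtp1* and *Tgtp2*, and likewise *Gbp6* and *Gbp10*, share 40.4% to 81.4% of their stretches of 75 bases, the read length, with each other. The 3 guanylate-binding protein genes lie together at chr3:142530342-142638008 (GRCm38), and *Igtp* and *Irgm2* overlap within chr11:58199556-58222782. These 2 genes share 162 exonic bases on the same strand, 8.01% of those of *Igtp* and 4.39% of those of *Irgm2*. Of the exonic bases of *Gbp7*, 11.3% are shared with *Gm43802* on the same strand.

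Interferon-induced effectors were the lowest large group, with a median of 170.1 and a range from 38.5 to 1915. *Ifi27* stood apart at 1915, and at 1960 per kilobase of the longest transcript it ranked 4th of all members, or 5th with the median transcript length. Of the remaining genes, *Ifi35* (515) and *Rsad2* (466), which encodes the antiviral enzyme viperin, were the only ones above the median of genes above 10. Of the exonic bases of *Ifi35*, 16.8% overlap *Gm11626* on the opposite strand. The oligoadenylate synthetase family ran from *Oasl1* at 296 through *Oasl2* at 107 to *Oas1a* at 41.9.

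*Isg15*, a ubiquitin-like modifier, had a level of 108 and its protease *Usp18*, which removes it and restrains the type I receptor, a level of 257. Per kilobase of the longest transcript the pair had 143 and 145, and with the median transcript length 143 and 404, so their closeness rests on the length used. *Ifit1* (250.1), *Ifit3* (187) and *Ifit2* (93.8), which bind foreign RNA, lie in 1 cluster at chr19:34550694-34650009, and *Ifit1* was 2.67 times as high as *Ifit2*. *Mx2* had a level of 170.1 and *Mx1* of 47.9. Both encode antiviral dynamin-like GTPases whose alleles in C57BL/6 are known to be defective, and GENCODE lists *Mx2* as a polymorphic pseudogene. The exonuclease gene *Isg20* was at 50.1.

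The chemokines *Cxcl9* and *Cxcl10*, which recruit T cells through CXCR3, were among the lower members. *Cxcl9* had a level of 149 and *Cxcl10* of 61.3, or 51.5 and 27.5 per kilobase. They are neighbours at chr5:92321347-92348889. Of the exonic bases of *Cxcl10*, 5.91% lie within *Art3* on the opposite strand.

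**Figure D2:**
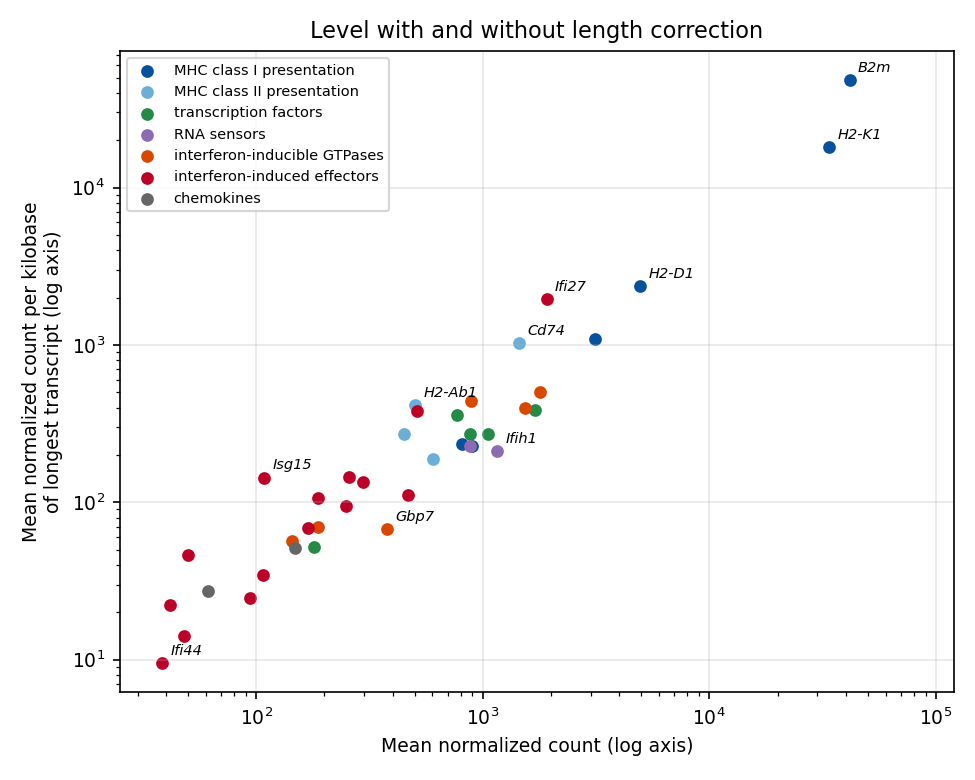
Mean normalized count (horizontal, log axis) against the same count per kilobase of the longest GENCODE transcript (vertical, log axis), 1 point per gene, coloured by role. *B2m* (48326 per kilobase) and *H2-K1* (18093) lead on both scales, while the short *Isg15* stands higher and the long *Gbp7* and *Ifih1* lower than their neighbours.

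Length correction changed the order of the members by more than 5 places for 7 of the 40 genes with the longest transcript and for 12 with the median transcript length. The members' median percentile was 74.7 among all listed genes by count and 78.8 among the 23334 genes with a transcript length by count per kilobase. *B2m*, *H2-K1* and *H2-D1* held the top 3 places by count and by either length. *Ifi44* was last by count and with the longest transcript, and 39th with the median length, where *Oas1a* was last.

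Upstream of these genes, the interferons themselves were at or near 0. Of 8 ligand genes, 7 were listed at 0, among them *Ifnb1*, and *Ifng* had a mean normalized count of 0.781. Among those at 0, *Ifna1*, *Ifna5*, *Ifnl2* and *Ifnl3* hold 20.4% to 37.3% of their 75-base stretches, the read length, in common with genes elsewhere in the genome, so reads from them may be hard to assign. *Ifnb1* and *Ifna4* hold 0% in common. The receptor chains and kinases were present, with 8 of 9 genes above 10. The type I receptor chains *Ifnar1* and *Ifnar2* had levels of 1507 and 2615, and the interferon gamma receptor chains *Ifngr1* and *Ifngr2* had 568 and 980.0. *Jak1*, a kinase used by both receptors, was highest of the list at 3597. The exception was *Ifnlr1*, the receptor chain specific to interferon lambda, at 6.3.

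The MHC regulators were far apart, with 849.7 for *Nlrc5*, the class I transactivator, and 24.9 for *Ciita*, the class II transactivator. Other interferon targets were above 10 for 24 of 24 genes, with a median of 402, led by the immunity-related GTPase *Iigp1* at 10588. In class I, *H2-Q10*, a secreted heavy chain made by the liver, had a level of 42221, above that of *H2-K1*, and per kilobase it was at 9755, below *H2-K1*. In class II, the peptide exchange factors *H2-DMa* and *H2-DMb1* were at 75.4 and 57.6.

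**Figure D3:**
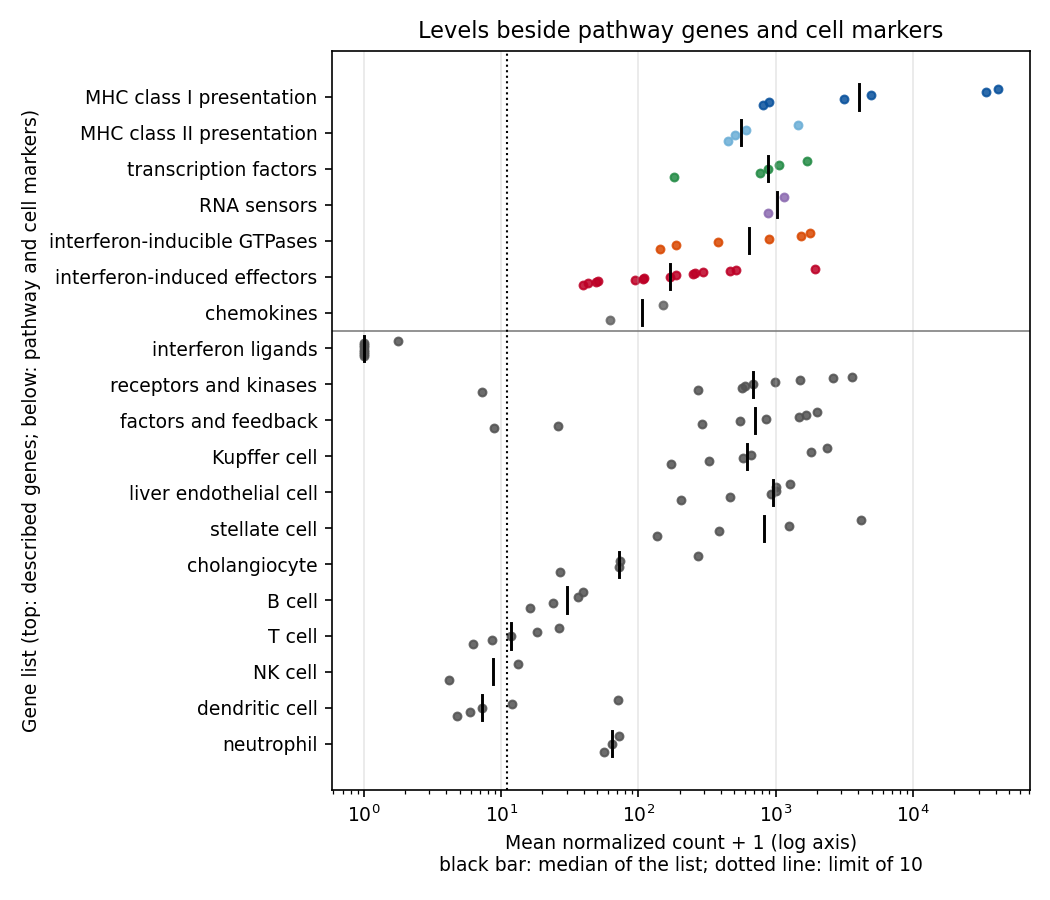
Mean normalized count plus 1 (log axis) of each gene in the 7 role groups above the line and in pathway and cell marker lists below it, 1 point per gene, with a black bar at the median of each list and a dotted line at the limit of 10. Ligands sit at 0 or under 1, receptors and Kupffer cell, endothelial and stellate markers overlap the range of the class II genes, and lymphocyte markers lie lower.

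Promoter sequences were taken from RefSeq (GRCm38.p6), as 250 bases before to 50 bases after each annotated start. Promoters on chromosome 18, where *Cd74* lies, were left out for members and for all genes alike. Of the 40 members, 33 had an entry among the others. They were searched on both strands for an ISRE-like motif (TTTC and TTTC separated by 2 bases of any kind), a GAS-like motif (TTCNNNGAA, in which N is any base) and a Y box-like motif (CCAAT), the last known from MHC promoters. An ISRE-like match was found for 16 of 33 members (48.5%), beside 3.99% of the 27025 genes with an entry. A GAS-like match was found for 9 members (27.3%), beside 9.55% of all genes, and a Y box-like match for 19 members (57.6%), beside 41.1%. The members were chosen as interferon targets, so a share above that of all genes is a description of the choice. Matches of different motifs shared bases in 0 cases.

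**Figure D4:**
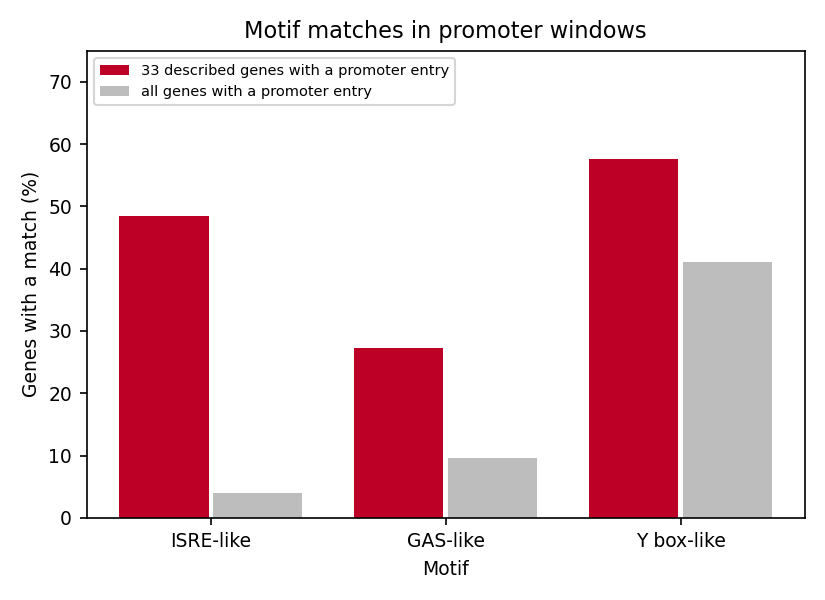
Share of genes (%, bars from 0) with at least 1 match of each motif in the 300-base promoter window, for the 33 members with an entry (red) and all 27025 genes with an entry (grey). The ISRE-like bar stands at 48.5% beside 3.99%, the GAS-like bar at 27.3% beside 9.55% and the Y box-like bar at 57.6% beside 41.1%.

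The roles differed in which exact matches they held. ISRE-like matches were found in all 6 GTPase promoters, in both RNA sensor promoters and in 5 of 11 effector promoters, but in 1 of 5 class I promoters, that of *B2m*, and in 0 of 2 class II promoters. The *Ddx58* and *Ifih1* matches begin 2 and 32 bases after the annotated start, so neither RNA sensor held a match before it. Only exact letters and spacing were counted, so a promoter without a match can still hold a variant of the element. The windows of *H2-K1* and *H2-D1* hold TTTCACTTC, which lacks 1 letter of the motif. The stretches below show the match in capitals with up to 10 bases on either side, on the strand of the gene, for members whose levels run from the highest to among the lowest. A match that reads GAAA at its left end is the motif on the other strand.
B2m: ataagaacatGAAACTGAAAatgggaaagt
Stat2: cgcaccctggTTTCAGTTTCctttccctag
Gbp7: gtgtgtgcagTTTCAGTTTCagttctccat
Ifit1: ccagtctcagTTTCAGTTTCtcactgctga
Ifit3: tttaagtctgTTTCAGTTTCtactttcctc
Gbp2: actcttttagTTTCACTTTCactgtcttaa
Cxcl10: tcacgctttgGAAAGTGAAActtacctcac
Oas1a: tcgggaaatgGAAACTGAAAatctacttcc
The 10 bases of the match were the same in *Stat2*, *Gbp7*, *Ifit1* and *Ifit3*, and *B2m* and *Oas1a* hold the same 10 bases on the other strand. The levels of these 6 genes ran from 41.9 to 41559.9. Only the 2 bases between TTTC and TTTC can differ between matches, so most of the sameness is set by the motif. *Ifit1* and *Ifit3* each hold another match, TTTCACTTTC, and *Oas1a* holds GAAATGGAAA, which are not among the stretches printed for these genes. In order of printing, the stretches lie at chr2:122147538-122147567, chr10:128270266-128270295, chr3:142530273-142530302, chr19:34640794-34640823, chr19:34583397-34583426, chr3:142620594-142620623, chr5:92349083-92349112 and chr5:120907520-120907549, the last 2 on the minus strand. The match began 139 bases before the annotated start in *B2m*, 85 in *Ifit1* and 14 in *Oas1a*. Members with an ISRE-like match had levels from 41.9 to 41559.9 with a median of 422, and those without one had levels from 38.5 to 33907 with a median of 515, so the ranges overlapped almost entirely.

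The promoters of *Igtp* and *Irgm2* held a GAS-like and an ISRE-like match side by side, separated by 2 bases, which are shown because the overlapping genes carry nearly the same stretch. Both matches are in capitals, the GAS-like match on the left.
Igtp: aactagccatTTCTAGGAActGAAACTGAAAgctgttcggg
Irgm2: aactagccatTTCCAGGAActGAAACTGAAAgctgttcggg
These 41 bases lie at chr11:58199501-58199541 and chr11:58214892-58214932 and are identical at 40 positions. The single difference is T14C, counted from 1 at the left end with the *Igtp* base first. The stretch lies at different distances from the RefSeq start, with the GAS-like match beginning 45 bases before it in *Igtp* and 75 bases before it in *Irgm2*. In GENCODE, *Irgm2* begins at chr11:58199618, within *Igtp*, so the printed *Igtp* stretch also lies before that start. The gene levels were 888 and 1782, or 439 and 505 per kilobase.

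Interferon gamma targets are known to be reached through GAS elements. GAS-like matches were found in *Irf1*, *Irf8*, *Isg20*, *Ifi35*, *Ifit2*, *Oas1a*, *Gbp7*, *Igtp* and *Irgm2*, and whether any of them is a working element was not tested. The *Ifi35* match begins 7 bases after the annotated start, and the *Ifit2* match 241 bases before a start of that gene. The match of *Irf1* is shown because it is the promoter of a factor that itself binds interferon response elements.
Irf1: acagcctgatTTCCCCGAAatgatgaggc
It lies at chr11:53769914-53769942, beginning 90 bases before a start of the gene. No GAS-like match was found in the windows of the 5 class I or 2 class II genes with an entry.

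Y box-like matches were found in all 7 MHC presentation genes with an entry, namely *B2m*, *H2-K1*, *H2-D1*, *Tap1*, *Tapbp*, *H2-Aa* and *H2-Eb1*. The motif is not particular to them, since 41.1% of all genes with an entry hold it. Matches were also found in 2 of 2 chemokines, 3 of 5 transcription factors, 5 of 11 effectors, 2 of 6 GTPases and 0 of 2 RNA sensors. The stretches of the light chain, the heavy chains and a class II chain are shown, with the match in capitals and ATTGG marking it on the other strand.
B2m: ctgagtccggATTGGctgtgagttc
H2-K1: tcaccaagaaCCAATcagtgtcgcc
H2-D1: attccaggagCCAATcagcgtcgcc
H2-Aa: gaattttctgATTGGttctggcgag
In order, they lie at chr2:122147624-122147648, chr17:34000325-34000349, chr17:35263031-35263055 and chr17:34287857-34287881, the second and the fourth on the minus strand. The printed *H2-K1* match begins 8 bases after 1 annotated start of the gene and 6 bases before another. The *Tapbp* matches, not printed, begin 248 and 165 bases before the start, and the *Tap1* match 222 bases before it. The motif has no free base, so its match is the same in every stretch by definition. The levels of the 2 heavy chain genes were 33907 and 4948.

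Reads of close paralogs can be hard to assign, so the transcripts were compared with those of every other GENCODE gene in stretches of 75 bases, the length of the reads. For 27 of the 40 members, 0 stretches occurred in a gene elsewhere in the genome, and for 9 the share was 1% or more. The largest shares were those of *Oas1a*, with 47.6% of its stretches in *Oas1g*, and *Ifit3*, with 41.1% in *Ifit3b*. The partners had levels of their own, 12.1 for *Oas1g* and 44.8 for *Ifit3b*, so the division of reads within these 2 pairs is uncertain. *H2-D1* shared 5.56%, *Ifit1* 5.19% and *H2-K1* 3.1%, of which 2.38% was shared with *H2-Q10*. How reads that fit more than 1 place were counted is not given in the sources used here.

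**Figure D5:**
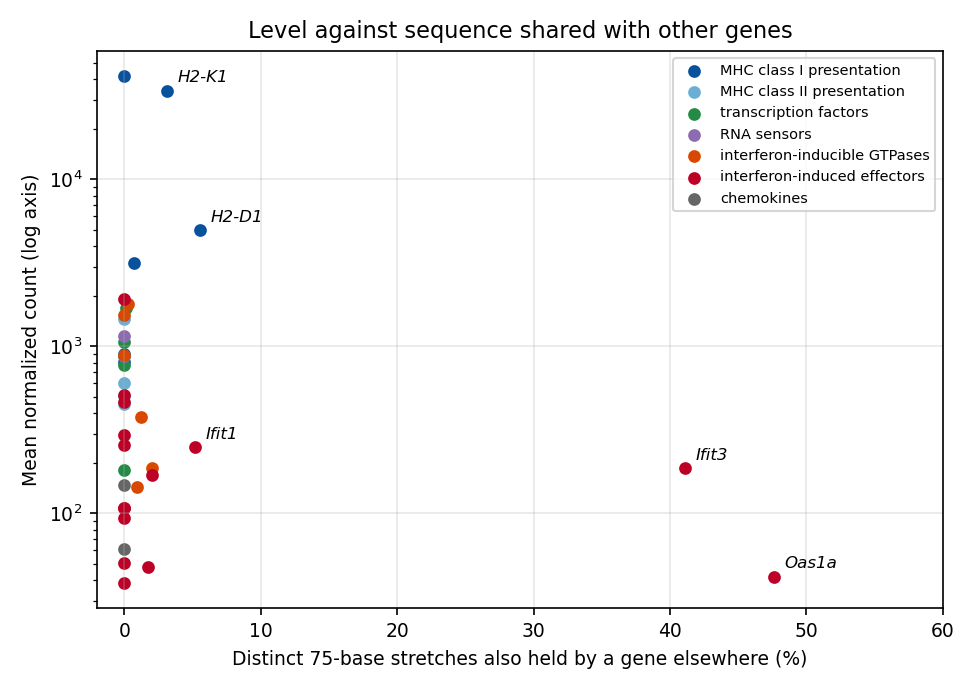
Share of distinct 75-base transcript stretches that a gene elsewhere in the genome also holds (horizontal, %) against mean normalized count (vertical, log axis), 1 point per gene, coloured by role. *Oas1a* (47.6%) and *Ifit3* (41.1%) stand apart on the right, and the other members lie under 6%.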

How the data were processed

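Single-end reads of hepatic mRNA from 3 WT and 3 Pai-1+/- mice were aligned by the authors to mm10 with STAR and compared by the authors with DESeq2, both on Illumina BaseSpace (RNA Express). The submitters' processing notes also name HOMER, with no role. Versions, annotation, strand setting and the treatment of reads with several matches are not given in the sources used here. The level analysed is a signal deposited by the authors, 1 mean per gene of size-factor normalized counts, with both genotypes pooled. What it holds was read from its column name. The table also holds the authors' fold changes, standard errors, test statistics and p-values for the genotypes, which were not used. A second table holds 6 columns of counts per animal, named by numbers that match no sample label. These 6 columns were not used, so library depths are unknown here, and the planned genotype test (a count model) was not run. No p-value, SD or interval is given.

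The 40 members and all other lists were chosen with earlier results of these data known. By the rule for named genes, every member is accounted for, and genes of the pathway and cell marker lists are named with their values, apart from those left out below. Transcript lengths, exons and 75-base stretches came from GENCODE M21 (GRCm38), in which 95.5% of listed symbols matched 1 gene. A stretch counted as elsewhere when the other gene did not overlap the member's locus, on either strand. Percentiles are ranks among the listed genes. Scripts used Python 3.11.15, NumPy 2.4.6, pandas 2.3.3 and Matplotlib 3.10.9 and were tested on simulated sequences. The comparison of 75-base stretches and of overlapping exons was added after the values were seen. Some genes of the lists are not reported here.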

Additional observations from a re-analysis of the deposited data

How the results depend on the processing

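All members lay above a mean normalized count of 5 and of 20 as well as of 10. The share of genes above 10 was 53.1% of all listed genes and 73.4% of genes with a mean above 0. The members' median percentile of 74.7 among all listed genes was 52.4 when only genes above 10 were ranked, since fewer genes were ranked. Per kilobase it was 78.8 with the longest transcript, 76.6 with the median transcript length and 74.4 with no length correction over the same genes. Ratios between named genes that depend on the transcript length are given beside each result. With only the bases before the start, 14 members had an ISRE-like match in place of 16, 8 a GAS-like match in place of 9, and 19 a Y box-like match, as in the whole window. The genes lost were *Ddx58* and *Ifih1* for the ISRE-like match and *Ifi35* for the GAS-like match.

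The test of the genotypes was not run, nor were its alternatives of another normalization, another count model, no filter on low counts and the omission of each mouse. No paired analysis was possible because the deposited count columns carry no replicate number and no result comes from a test. The depth of the libraries is unknown here, so a gene listed at 0 can be transcribed below detection.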

Other observations

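Several genes outside the members were listed at 0 or low although the tissue is known to hold their mRNA. The beta and alpha globin genes *Hbb-bs* and *Hba-a1* were listed at 0, while *Alas2*, another erythroid gene, had a mean normalized count of 2136. These genes were singled out after their values were seen. The methods state that livers were flushed with saline. *Hba-a1* shared 67.9% of its 75-base stretches with *Hba-a2*, and *Hbb-bs* shared 51.5% with *Hbb-bt*. *Ass1*, a urea cycle enzyme abundant in hepatocytes, had a level of 34.5 and shared 32.6% of its stretches with the processed pseudogene *Gm5424*. The other 5 hepatocyte markers, among them *Cps1* (136698), lay between 99029 and 2155550. Genes with shared stretches were not all low, as *Psme2*, with 22.9% elsewhere, had a level of 1432 and *H2-Q10*, with 12.5%, of 42221. The part of shared sequence in the low values was not tested.

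Over protein-coding genes, the share listed at 0 was higher in the classes with more shared sequence. Of 16252 genes with under 1% of stretches elsewhere, 16.4% were listed at 0 and 65.0% were above 10. Of 243 genes with 90% or more of stretches elsewhere, 96.7% were listed at 0 and 0.823% were above 10. The genes of these classes differ in more than shared sequence, and its part in the levels was not tested. The class II regulators of peptide exchange in B cells, *H2-Oa* and *H2-Ob*, had levels of 7.8 and 29.6. In the class I region, *H2-Q6* and *H2-Q7* were listed at 0, with 21.1% and 17.0% of their stretches in other genes, and *Tgtp1* and *Tgtp2*, a pair of interferon-inducible GTPases that share 74.6% and 81.4% of their stretches with each other, had levels of 47.4 and 18.9.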
